A study of Mus musculus with 12 samples.

Results

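EBSS starvation of Vps15 knockout fibroblasts was measured in 6 of the 12 libraries of the series, picked by their labels: 3 libraries of Vps15KO cells kept in basal medium and 3 of Vps15KO cells given EBSS for 2 h. All cells of the series were mouse embryonic fibroblasts (MEFs) of the genotype Vps15f/f, in which both Vps15 alleles are flanked by loxP sites. Vps15KO cells had received adeno-CRE, which brings in the recombinase, and the WT cells set beside them here had received adeno-GFP, so WT cells carry the floxed alleles too. Sampling came 5 days after transduction. Library names read pLEX_CRE and pLEX_GFP, and what pLEX stands for is not given in the sources used here. Before treatment cells stood at 90% confluence in DMEM with 4.5 g/L glucose and 10% serum. EBSS is a balanced salt solution with a low level of glucose and without amino acids or serum, so amino acids, serum and most of the glucose left together and their shares in a change cannot be told apart. Both Vps15KO groups had been exposed to Cre, which therefore does not differ between them. Whether the cells were pooled or came from 1 embryo, and whether the 3 libraries of a group were separate cultures, is not given in the sources used here, so p-values measure the spread between libraries, which may be technical.

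Vps15 is the protein product of Pik3r4 and the regulatory subunit of class 3 phosphatidylinositol 3-kinase (PI3K). With the lipid kinase Vps34 (Pik3c3) and Beclin 1 (Becn1) it makes the phosphatidylinositol 3-phosphate on which autophagosomes form and endosomes sort their cargo. Fibroblasts that lose amino acids and serum normally lower the activity of the growth kinase mTORC1, turn on autophagy, release FOXO and MiT/TFE transcription factors into the nucleus and raise translation of Atf4. The title of the series names a nuclear role of class 3 PI3K in chromatin remodelling during fasting. The comparison asks which transcripts move when cells without an intact Vps15 gene lose their nutrients.

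Read totals in genes were 21278921 to 21698584 over the 12 libraries. Values per library are normalized counts, reads divided by the size factor of the library and given for replicates 1, 2 and 3 in that order, and a value after ± beside a log2 change is its standard error (SE) in the fit. Among the 6 Vps15KO libraries the first principal component held 83.8% of the variance and separated the media, and the second held 4.86%. Replicate Vps15KO libraries differed by a chi-square per gene of 2.73 to 5.92, more than read counting alone gives, and no pair looked like 1 library deposited again. WT basal replicate 2 (at least 19.1 against the other WT basal libraries) and WT EBSS replicate 1 (7.73 and 11.1) stood apart from their groups. Pik3r4, on chromosome 9, had 633, 699.8 and 640.3 normalized counts in basal medium and 623, 602 and 672 in EBSS in Vps15KO. In WT it had 864, 879 and 884 normalized counts in basal medium and 959, 891 and 834 in EBSS. Each WT value exceeded each Vps15KO value. The Vps15KO libraries overlapped between media, with a log2 change of -0.05 ± 0.07 (adjusted p = 0.536). A count over the whole gene cannot check a deletion of part of it. Of 10 fibroblast markers 9 passed the filter on low values, the exception being Thy1 with at most 3 reads in any library. The summed fibroblast markers came to 202499 to 211121 normalized counts in basal and 182598 to 195544 in EBSS libraries. Markers that define epithelium, leukocytes, T cells and endothelium were near or at 0: Epcam had at most 1 read in any library, Ptprc at most 2, Cd3e 0 and Pecam1 at most 7. Cd68 held nearly all counts of the leukocyte list, whose sum was 2919.7 to 3798 in basal and 2636 to 3309 in EBSS libraries. The sums of the epithelial list (1 of 6 tested, Krt8) went from 1.95 to 11.8 up to 30.6 to 35.5, and those of the adipocyte list (1 of 3 tested, Fabp4) from 537 to 548 down to 355 to 398. The muscle and pericyte list (3 of 5 tested, Des, Rgs5 and Cspg4) summed to 1366 to 1621 in basal and 1268 to 1364 in EBSS libraries, and the neural list (2 of 5 tested, Tubb3 and Map2) to 513 to 629 and 528 to 601. The part of these markers in the results was not tested. In bulk RNA, fewer cells of a kind and less RNA per cell cannot be told apart.

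After 2 h in EBSS genes across the table had changed, largely by small steps, and large steps went mainly upward. Genes with a mean at least 1 log2 unit above the value of a 0 count were tested, 14279 in all, and a gene was called at an adjusted p under 0.05 in limma's moderated test. In Vps15KO cells 3698 genes rose (25.9% of those tested) and 3721 fell (26.1%), 52% in all. The median change over all genes was -0.02, the 5th percentile -0.54 and the 95th 0.79, with a median SE of 0.09. These shares and this median are the background for each of the 51 gene groups that follow, whose counts are over the members that passed the filter (973 of 1001 places, 34 groups in full). Where the 3 EBSS libraries lay entirely above the 3 basal ones, 4441 genes were counted (31.1%), and where they lay below, 4550 (31.9%).

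Size set the directions apart. Under 0.25 on the log2 scale, 480 genes rose and 661 fell, and from 0.25 to 0.5 falls also led, with 2164 against 1560 rises. From 0.5 to 1 rises led, with 1247 against 808. A rise of at least 1 was called in 411 genes (2.88%) and a fall of that size in 88 (0.616%), and at 2 or more 40 genes rose and 3 fell. Summed over called genes, the rises amounted to 8.99% of the normalized counts of a basal library and the falls to 7.28%. The 10 largest losses took 12.7% of all loss, and the 10 largest gains 7.22% of all gain. Losses were thus concentrated in fewer transcripts than gains.

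**Figure D1:**
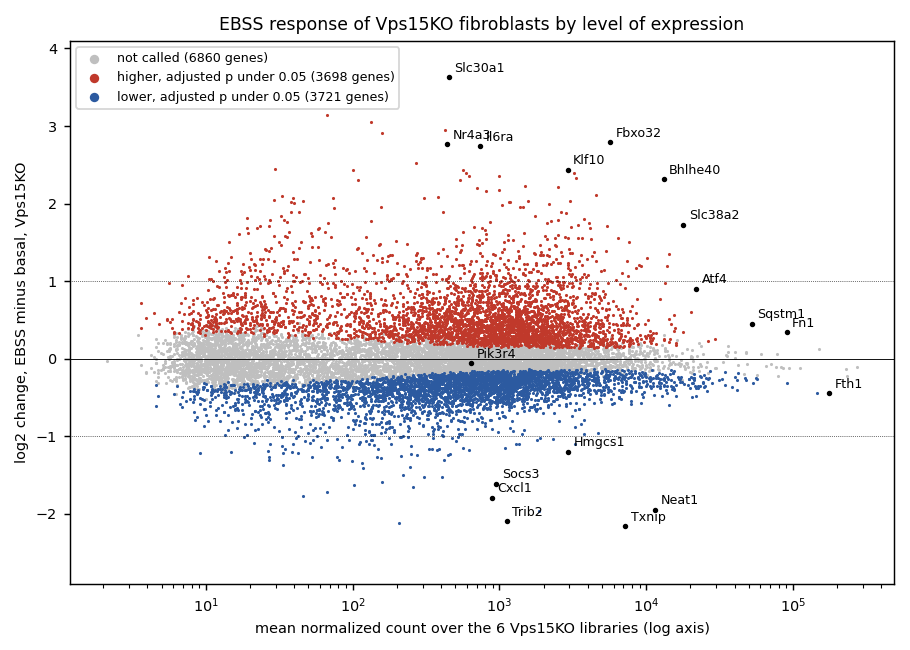
Log2 change after EBSS in Vps15KO cells (y axis) of the 14279 genes tested against their mean normalized count over the 6 Vps15KO libraries (x axis, log scale). Red points rose (3698), blue points fell (3721) and grey points were not called, dotted lines mark changes of 1 and -1, and labelled genes, in black, are described in the text. Points past the upper line outnumber those past the lower line, 411 to 88.

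The genes that rose most belong to metal handling, lipid metabolism, transcription and signalling rather than to 1 pathway. Slc30a1, at chromosome 1, 191906697 to 191913248 on mm10, encodes a zinc exporter of the plasma membrane and had 45.9, 40.2 and 52.0 normalized counts in basal medium and 947, 826 and 801 in EBSS. All EBSS libraries lay far above all basal ones, a ratio of means of 18.6 and a log2 change of 3.63 ± 0.10 (adjusted p = 6.69e-15). Angptl4, which encodes a secreted inhibitor of lipoprotein lipase, had 1.95, 1.96 and 0 normalized counts in basal medium and 129.8, 130.2 and 140.3 in EBSS. Transcripts of Angptl4 were thus at the limit of detection in fed cells, where a count of 0 allows up to 3 reads, and the log2 change of 3.14 ± 0.13 on the deposited scale understates the ratio, for which no value is given. Irf4, a transcription factor known mainly from lymphocytes, had 9.76, 11.8 and 12.7 normalized counts in basal medium and 256, 249.5 and 255 in EBSS, with no overlap (3.05 ± 0.11). Id2, which blocks helix-loop-helix factors from binding DNA, had 73.2, 81.4 and 75.5 normalized counts in basal medium and 690.3, 771 and 855 in EBSS (2.95 ± 0.12). Slc23a3, a member of the vitamin C transporter family, had 18.6, 22.5 and 17.6 normalized counts in basal medium and 324, 255 and 316 in EBSS (2.91 ± 0.13). In all 5 genes the lowest EBSS library was several times the highest basal one.

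Next in size stood genes of protein breakdown, hormone-like signals and the clock. Fbxo32, the muscle atrophy ubiquitin ligase atrogin-1 and a target of FOXO factors, had 1463, 1410.4 and 1373 normalized counts in basal medium and 10622, 10021 and 9277 in EBSS (2.79 ± 0.07), the only one of the 15 largest rises that was also among the 10 largest gains in counts. Nr4a3 and Klf10, both described with their families, followed at 2.77 ± 0.11 and 2.44 ± 0.08. Il6ra, the receptor subunit that binds interleukin 6, had 182, 180.3 and 157 normalized counts in basal medium and 1458, 1278 and 1200.1 in EBSS (2.74 ± 0.09). Hes1, the repressor best known as a Notch target, had 176, 169 and 130.4 normalized counts in basal medium and 864, 1009 and 1038 in EBSS (2.43 ± 0.12). Plcd4, a phospholipase C, rose by 2.43 ± 0.12 from a mean of 16.3 ± 4.44 normalized counts (SD, n = 3). Zfp655, a zinc finger gene, rose by 2.39 ± 0.08, and Bmp2, a bone morphogenetic protein, by 2.36 ± 0.12. Ppp1r10, a nuclear regulator of protein phosphatase 1, had 1062, 1082 and 1087 normalized counts in basal medium and 5538, 5515 and 5609.5 in EBSS, values that varied little within a medium (2.34 ± 0.06). None of these genes overlapped between media.

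The deepest fall on the deposited log2 scale was that of Txnip, at chromosome 3, 96557957 to 96561857 on mm10. Its product restrains glucose uptake and binds thioredoxin. Txnip had 11580.1, 11530.2 and 12111 normalized counts in basal medium and 2311, 2703 and 2844 in EBSS, so EBSS libraries kept 22.3% of the basal mean (-2.16 ± 0.08, adjusted p = 1.88e-13). Trib2, a pseudokinase, had 2017, 1734 and 1762 normalized counts in basal medium and 357, 436 and 432 in EBSS (-2.10 ± 0.08). Ccl7, a chemokine, had 306, 391 and 364 normalized counts in basal medium and 64.9, 66.1 and 54.3 in EBSS (-2.11 ± 0.14). By the ratio of means Ccl7 kept 17.5% and Trib2 22.2% of the basal level, each less than Txnip. Socs3, the feedback inhibitor of cytokine receptors, had 1487, 1465 and 1407 normalized counts in basal medium and 426, 456 and 488 in EBSS (-1.61 ± 0.07). In each of these 4 genes every EBSS library lay below every basal library. The lipid genes Them6 (-1.66 ± 0.11), an acyl-CoA thioesterase family member, and A4galt (-1.53 ± 0.11), a glycolipid galactosyltransferase, fell too. Cdkn2d, an inhibitor of CDK4 and CDK6, fell by 1.52 ± 0.10, and Sertad3, a small transcriptional regulator, fell by 1.50 ± 0.09. Bbs12, of the chaperonin-like complex that assembles the BBSome, fell by 1.41 ± 0.10, and Kctd13, an adaptor of a ubiquitin ligase, fell by 1.40 ± 0.11. Fignl2 (-1.63 ± 0.10) and Prr33 (-1.32 ± 0.10) completed the 15 with Cxcl1, Mir100hg and Neat1, which are described with their groups.

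Ranked by counts instead of ratios, other genes came first. The 10 largest gains made up 7.22% of all counts gained by called genes, and the 10 largest losses 12.7% of all counts lost. Fn1, which encodes fibronectin, had 78471, 85605 and 75480.4 normalized counts in basal medium and 100639, 101196 and 101376 in EBSS, the largest gain of all at 21218 normalized counts and yet only 0.34 ± 0.08 on the log2 scale. Slc38a2 and Bhlhe40, described with their groups, gained 19231 and 17544. Ndrg1, a stress-induced gene of the cytoplasm, had 8399, 7726 and 7966 normalized counts in basal medium and 21263, 20394 and 20039.7 in EBSS (1.35 ± 0.06). Ddx5, an RNA helicase, gained 8743 counts (0.98 ± 0.07). The largest losses of single genes were in the ferritin chains, the protein shell that stores iron. Fth1, the heavy chain, had 213008, 210236 and 186838 normalized counts in basal medium and 140032, 158665 and 149153 in EBSS (-0.45 ± 0.11, adjusted p = 0.00172), and Ftl1, the light chain, had 140943, 183245 and 181495 normalized counts in basal medium and 112748, 121824 and 135341 in EBSS (-0.44 ± 0.12, adjusted p = 0.00553). The spread within a medium was wide for both chains but the media did not overlap, and ferritin genes have processed copies between which reads can be misassigned. Mgp, a matrix protein that inhibits calcification, fell by 0.31 ± 0.08, and after Neat1 came the ribosomal protein genes Rps2 (-0.32 ± 0.08) and Rpl13a (-0.41 ± 0.09).

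EGR and NR4A factors, immediate early transcription factors that cells make within minutes of a stimulus, rose as a family. All 7 rose and each by at least 1, with a median of 1.80 beside -0.02 over all genes. Nr4a1 had 2127, 1863 and 1868 normalized counts in basal medium and 5623, 6215 and 7298 in EBSS (1.69 ± 0.09), and Nr4a2 had 687, 579 and 529 normalized counts in basal medium and 1217, 1272 and 1381 in EBSS (1.08 ± 0.11). Nr4a3 had 107, 88.2 and 83.3 normalized counts in basal medium and 706, 809 and 847 in EBSS (2.77 ± 0.11). These 3 orphan nuclear receptors have no known hormone, and their EBSS libraries lay above their basal libraries without overlap. Egr1, a zinc finger factor downstream of ERK signalling, had 1764, 1539.8 and 1660.1 normalized counts in basal medium and 5369, 5504 and 6672 in EBSS (1.80 ± 0.09). Egr3 rose from 101 ± 9.41 to 509.7 ± 32.3 (SD, n = 3; 2.08 ± 0.09), Egr2 from 21.5 ± 4.51 to 196 ± 18.8 (2.30 ± 0.12) and the scarce Egr4 from 6.20 ± 3.42 to 40.4 ± 10.9 (1.28 ± 0.16). The family thus moved one way from very different basal levels.

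Because the 3 NR4A genes moved together, the 250 bases before 1 transcription start of each are shown, from RefSeq on GRCm38.p6. Capitals mark every TGACG or its reverse complement CGTCA, a core site within the cAMP response element bound by CREB and ATF factors. The windows are chr15:101266596-101266845 on the plus strand, chr2:57124004-57124253 on the minus strand and chr4:48045055-48045304 on the plus strand. Nr4a1 spans 101253902 to 101274795, so its window lies inside the gene, before an internal start. The Nr4a3 gene begins at 48045078, so most of its window lies inside the gene as well.
Nr4a1: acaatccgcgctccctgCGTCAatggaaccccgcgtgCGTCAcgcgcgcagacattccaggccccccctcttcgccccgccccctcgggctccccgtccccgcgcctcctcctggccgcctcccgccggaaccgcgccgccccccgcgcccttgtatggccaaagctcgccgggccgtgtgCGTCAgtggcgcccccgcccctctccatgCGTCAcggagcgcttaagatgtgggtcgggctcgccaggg
Nr4a2: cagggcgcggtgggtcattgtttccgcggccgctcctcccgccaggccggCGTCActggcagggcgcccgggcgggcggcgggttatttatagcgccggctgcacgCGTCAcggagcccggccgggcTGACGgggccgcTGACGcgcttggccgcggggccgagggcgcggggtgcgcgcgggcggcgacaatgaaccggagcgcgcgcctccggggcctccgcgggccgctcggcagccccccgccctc
Nr4a3: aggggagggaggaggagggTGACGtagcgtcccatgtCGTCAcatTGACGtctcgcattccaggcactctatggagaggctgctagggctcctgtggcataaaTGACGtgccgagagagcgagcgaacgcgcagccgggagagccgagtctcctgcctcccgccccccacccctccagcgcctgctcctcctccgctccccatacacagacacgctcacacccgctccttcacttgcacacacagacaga
Each window holds 4 core sites. Of 10879 promoters of tested genes with a sequence in the RefSeq table, 26.6% hold at least 1 core site on either strand and 0.331% hold 4 or more. The full element TGACGTCA, which contains a core site on each strand, was present in 2.69% of these promoters and in none of the 3 windows shown. A match describes letters, not binding.

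Other early genes rose with them, though not each family in full. All 12 AP-1 subunits and Myc rose, with a median of 0.84. Atf3, a stress-induced member, had 761, 693 and 724 normalized counts in basal medium and 1973, 1962 and 1903 in EBSS (1.39 ± 0.08). The small MAF genes, partners of other leucine zipper factors, rose by 1.23 ± 0.07 (Mafk) and 1.03 ± 0.06 (Mafg), ahead of Junb at 0.84 ± 0.06, Fos at 0.84 ± 0.10 and Myc at 0.35 ± 0.07. Among 11 Kruppel-like factors 8 rose and 1 fell. Klf10, a repressor first known from TGF-beta signalling, had 917, 892 and 851 normalized counts in basal medium and 4557, 5433 and 4817 in EBSS (2.44 ± 0.08). Klf9, a gene of the glucocorticoid response, rose by 1.56 ± 0.12, Klf4 by 1.36 ± 0.09 and Klf11 by 1.26 ± 0.08, whereas Klf2, a gene of vascular quiescence, fell by 0.62 ± 0.07.

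In the group of BTG, IER and ZFP36 early genes 10 of 16 rose and 2 fell. Ier5 had 1712, 1748 and 1714 normalized counts in basal medium and 5153, 5057 and 5115 in EBSS (1.55 ± 0.06), and Tob2, an antiproliferative adaptor of mRNA deadenylation, had 1567, 1578 and 1594 normalized counts in basal medium and 5359, 5029 and 5461 in EBSS (1.72 ± 0.07). The opposite held for Ier3, a survival gene under NF-kappaB, with 5156, 4788 and 4958 normalized counts in basal medium and 2609, 2432 and 2541 in EBSS (-0.97 ± 0.07), and for the mRNA decay factor Zfp36 (-0.55 ± 0.09). Feedback inhibitors of ERK signalling divided. Of 16 DUSP phosphatases and Sprouty or Spred proteins 9 rose and 5 fell. Dusp10 (0.99 ± 0.08), Dusp4 (0.99 ± 0.11) and Spred2 (0.95 ± 0.11) rose, while Dusp7 (-0.40 ± 0.07), Spred3 (-0.47 ± 0.07) and Spry2 (-0.30 ± 0.08) fell. Among ID genes and inhibitors of SMAD signalling 7 of 9 rose, led by Id2. Skil, a corepressor of SMADs, rose by 1.45 ± 0.09 and the inhibitory Smad7 by 1.20 ± 0.07, while the decoy receptor Bambi fell by 0.33 ± 0.08.

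**Figure D2:**
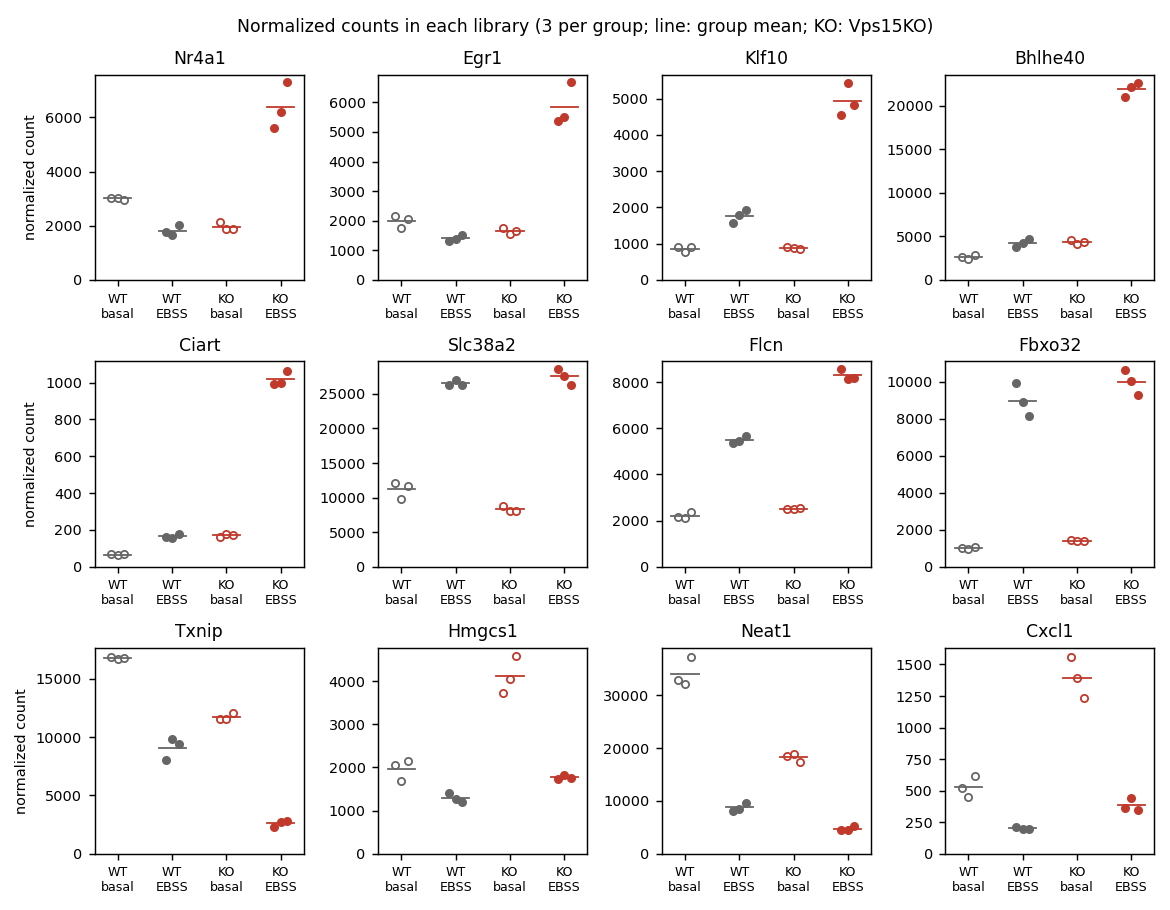
Normalized counts (y axis, from 0 in each panel) of 12 genes in every library, with open circles for basal medium, filled circles for EBSS, grey for WT, red for Vps15KO (KO) and a line at each group mean. In Vps15KO the 3 EBSS libraries lie above the 3 basal ones in the upper panels, from Nr4a1 to Fbxo32, and below them in the lowest row, from Txnip to Cxcl1, while in WT the means of Nr4a1 and Egr1 are lower in EBSS.

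The circadian clock is a feedback loop in which CLOCK and BMAL1 (Arntl) bind E-boxes and drive their own repressors. Repressors and output factors rose at 12 of 14 genes and fell at 1, with a median of 1.15. Bhlhe40, a repressor that competes for E-boxes, had 4642, 4173 and 4376 normalized counts in basal medium and 21060.4, 22158 and 22604 in EBSS (2.31 ± 0.08, adjusted p = 8.91e-14). Ciart, another repressor, had 161, 180.3 and 172 normalized counts in basal medium and 990.2, 996 and 1065 in EBSS (2.40 ± 0.08). Nr1d1, which encodes the nuclear receptor REV-ERB alpha, had 791, 886 and 918 normalized counts in basal medium and 3728, 4162 and 4492 in EBSS (2.22 ± 0.10). No EBSS library of these genes came near its basal level. Nr1d2 rose by 1.47 ± 0.09, Bhlhe41 by 1.50 ± 0.09, Per2 by 1.34 ± 0.13 and the output factors Hlf and Tef by 1.24 ± 0.11 and 1.06 ± 0.06. The period genes did not move as one, since Per3 fell by 0.32 ± 0.09 and Per1 had a change of -0.13 ± 0.10 without a call. Of 5 activators 3 rose: Arntl (1.06 ± 0.09), Clock (0.66 ± 0.08) and Rora (0.59 ± 0.09).

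Ciart is shown for its E-boxes, CACGTG, which read the same on both strands. They stand in capitals in the 250 bases before 1 transcription start (RefSeq, GRCm38.p6, chr3:95882229-95882478, minus strand). The gene spans 95878500 to 95882257, so the last bases of the window lie inside the gene.
Ciart: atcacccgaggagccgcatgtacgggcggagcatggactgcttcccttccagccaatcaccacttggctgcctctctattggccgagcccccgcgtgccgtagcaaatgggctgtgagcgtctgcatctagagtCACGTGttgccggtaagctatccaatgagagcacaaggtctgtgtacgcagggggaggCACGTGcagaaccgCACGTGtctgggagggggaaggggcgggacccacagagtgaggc
The window holds 3 E-boxes, a number reached by 0.119% of the promoters searched. At least 1 E-box was present in 8.36% of all of them, in 16.7% (54 of 323) of those of genes that rose by at least 1 and in 4.62% (3 of 65) of those of genes that fell by at least 1. Median GC content of these 3 sets of windows was 59.6%, 60.4% and 59.2%, and the median number of CG pairs, which the E-box contains, was 16, 16 and 13.

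Loss of amino acids acts through the kinase GCN2 on translation of ATF4, which with CHOP (Ddit3) drives transporters, synthetases and feedback genes. Of 16 effectors 10 rose and 3 fell, with a median of 0.37. With length and GC trends removed 1 of them fell. Atf4 itself had 16001, 15607 and 14345 normalized counts in basal medium and 28339, 28853 and 28572 in EBSS (0.90 ± 0.09). Sesn2, a leucine sensor that restrains mTORC1, had 1209.9, 1105 and 1040.4 normalized counts in basal medium and 3974, 3726 and 4037 in EBSS (1.78 ± 0.08), and Ppp1r15a, the phosphatase subunit that restores translation, had 2369.9, 2373 and 2141 normalized counts in basal medium and 5419, 5704 and 5799 in EBSS (1.29 ± 0.09). EBSS libraries were the higher ones throughout. Cebpg, a partner of ATF4, rose by 0.53 ± 0.07. Asns, asparagine synthetase and a standard ATF4 target, stood at 8743 ± 319 and 8706 ± 219 normalized counts (SD, n = 3) with no call (-0.01 ± 0.08), as did Chac1 (-0.02 ± 0.13). Ddit4, which inhibits mTORC1 (-0.28 ± 0.07), and Eif4ebp1, which blocks the cap-binding factor (-0.34 ± 0.10), fell.

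Most amino acid transporters rose. Of 15 transporters, among them Slc38a9 of the lysosome, 9 rose and 0 fell. In the fit of the 6 Vps15KO libraries alone, and with library weights, 2 fell, and with quantile normalization 1 fell. Slc38a2, the sodium-coupled transporter of small neutral amino acids, had 8775, 8094 and 8035 normalized counts in basal medium and 28669, 27575 and 26352 in EBSS (1.73 ± 0.07). Slc7a1, the transporter of arginine and lysine, had 1922, 1762 and 1843 normalized counts in basal medium and 6726, 6125 and 6032 in EBSS (1.76 ± 0.07). Slc3a2, the common heavy chain of several exchangers, had 8955, 8548 and 7819 normalized counts in basal medium and 19713, 18472 and 20033 in EBSS (1.20 ± 0.08), while its partners Slc7a11 for cystine and Slc7a5 for leucine rose by 0.89 ± 0.11 and 0.60 ± 0.08. The media were apart in all 5. Enzymes of serine, glycine and folate metabolism rose at 4 of 13 and fell at 2, among the rises Shmt1 (1.10 ± 0.08), with the synthesis enzymes Phgdh (-0.08 ± 0.09) and Psat1 (0.07 ± 0.07) without a call. Without basal replicate 3 or EBSS replicate 1 of Vps15KO a single enzyme fell. Cytosolic tRNA synthetases split evenly, 5 rising and 5 falling of 20, from 0.45 ± 0.07 in Iars to -0.34 ± 0.08 in Wars. These shares are those of all genes tested, and with quantile normalization 9 synthetases fell.

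Folliculin with FNIP1 and FNIP2 is the GTPase-activating complex for RagC, through which amino acids hold MiT/TFE factors at the lysosome. Flcn had 2495, 2491 and 2532 normalized counts in basal medium and 8573, 8148 and 8161 in EBSS (1.72 ± 0.06), Fnip2 had 4010.4, 3880.3 and 4056 normalized counts in basal medium and 12105, 11384 and 10532 in EBSS (1.50 ± 0.06), and Fnip1 rose by 1.55 ± 0.10. Rragc, which encodes RagC, had 3162, 3328 and 3143 normalized counts in basal medium and 7511, 6704 and 7172 in EBSS (1.14 ± 0.06). Every EBSS library of these genes lay above every basal one. Of the 16 genes of this group 7 rose and 2 fell, the falls being the factor Tfeb (-0.30 ± 0.08) and the Ragulator subunit Lamtor2 (-0.45 ± 0.06). Falls numbered 4 without WT basal replicate 2, without both WT libraries that stand apart, and with quantile normalization. Mitf, another factor of the family, rose by 0.64 ± 0.08. Among mTORC1, TSC and GATOR genes 6 of 23 rose and 4 fell. The mTORC1 inhibitor Akt1s1 (PRAS40) rose by 1.08 ± 0.09 and Tsc1 by 0.73 ± 0.08. Falls were seen in the GATOR1 subunits Nprl2 (-0.46 ± 0.09) and Nprl3 (-0.50 ± 0.08), the arginine sensor Castor1 (-0.70 ± 0.11) and Rhebl1 (-0.62 ± 0.09), while Mtor (-0.03 ± 0.06) and Rptor (-0.10 ± 0.06) were not called. With trends of transcript length and GC content removed, 7 genes of that group fell in place of 4.

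Genes of the complex that Vps15 belongs to moved in both directions. Of 9 class 3 PI3K genes 3 rose and 2 fell, shares near the background, and with length and GC trends removed 2 rose and 4 fell. Atg14, which directs the complex to autophagosomes, had 1112, 1042 and 1077 normalized counts in basal medium and 2916, 2729 and 2641 in EBSS (1.34 ± 0.06). Uvrag, which directs it to endosomes, had 863, 811 and 802 normalized counts in basal medium and 1367, 1218 and 1231 in EBSS (0.61 ± 0.07). Both were apart between media, and Ambra1, an upstream adaptor, rose by 0.22 ± 0.06. The inhibitory subunit Rubcn fell by 0.24 ± 0.07 and Rubcnl fell by 0.64 ± 0.13. The core genes Pik3c3 (0.12 ± 0.06), Becn1 (-0.05 ± 0.07) and Pik3r4 had no call, although Pik3c3 passed without WT basal replicate 2.

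Autophagy genes moved in both directions. Of 29 genes of the machinery 9 rose and 7 fell, shares near the background, with a median of 0.06. Ulk1, the initiating kinase, rose by 0.56 ± 0.06 and its scaffold Rb1cc1 (FIP200) by 0.71 ± 0.09. Atg12 (0.54 ± 0.06) and Atg3 (0.47 ± 0.07) of the conjugation systems rose, as did the conjugated proteins Gabarapl1 (0.33 ± 0.06) and Map1lc3b (0.33 ± 0.06). Vmp1, a lipid scramblase of the endoplasmic reticulum, had 5991, 6176 and 6446 normalized counts in basal medium and 3157, 3241 and 3147 in EBSS (-0.96 ± 0.05), with all EBSS libraries the lower ones. The protease Atg4d fell by 0.94 ± 0.10 and Atg16l2 fell by 0.79 ± 0.09. Leaving out replicate 2 of either medium in Vps15KO left 4 falls in place of 7. Of 12 cargo receptors 4 rose and 1 fell. Leaving out basal replicate 1 or 2 or EBSS replicate 1 of Vps15KO gave 2 rises, and without Vps15KO basal replicate 2 none of the receptors fell. Sqstm1 (p62) had 40679, 45370.2 and 47231 normalized counts in basal medium and 64265, 58854 and 58648 in EBSS (0.45 ± 0.07), a gain of 16162 counts, and Nbr1 rose by 0.42 ± 0.08.

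Few lysosomal genes changed. Of 29 enzymes and membrane proteins 2 rose and 5 fell. The rises were in Gla, alpha-galactosidase (0.66 ± 0.07), and the cholesterol exporter Npc1 (0.41 ± 0.06), and the deepest fall was in the sialidase Neu1, with 3752, 4015 and 4006 normalized counts in basal medium and 2335, 2339 and 2334 in EBSS (-0.74 ± 0.06). The proteases Ctsb (-0.12 ± 0.08) and Ctsd (-0.13 ± 0.09) and the membrane protein Lamp1 (0.01 ± 0.07) had no call. The number of lysosomal falls ran from 3 (leaving out basal replicate 2, EBSS replicate 1 or EBSS replicate 2 of Vps15KO) to 10 (length and GC trends removed). Without WT basal replicate 2, and without both WT libraries that stand apart, 4 lysosomal genes rose. Subunits of the proton pump (V-ATPase) rose at 8 of 16 and fell at 3, led by Atp6v1h (0.68 ± 0.06) and Atp6v1c1 (0.66 ± 0.06) of the soluble domain. Only 1 subunit fell without basal replicate 2 or EBSS replicate 2 or 3 of Vps15KO, or with length and GC trends removed.

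FOXO factors are held out of the nucleus by insulin and serum signals through AKT. Of 21 factors and targets 11 rose and 2 fell, with a median of 0.21. Besides Fbxo32, the insulin receptor substrate Irs2 had 1179.6, 1183 and 1325 normalized counts in basal medium and 3659.8, 3784 and 3876 in EBSS (1.60 ± 0.11), and Bcl6, a repressor, had 519, 458 and 443 normalized counts in basal medium and 1256, 1134 and 1137 in EBSS (1.27 ± 0.09). Foxo1 (0.85 ± 0.06) and Foxo3 (0.65 ± 0.07) rose, and Trim63, the second atrophy ligase, rose from 13.4 ± 1.10 to 76.2 ± 10.9 (SD, n = 3; 1.50 ± 0.14). Sod2 (-0.08 ± 0.06), Cat (-0.09 ± 0.06) and Pdk4 (0.06 ± 0.15), often used as FOXO readouts, had no call, and Cdkn1b fell by 0.33 ± 0.09. Quantile normalization raised the falls from 2 to 6, and with length and GC trends removed 9 rose, 3 fell and the median was -0.02.

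Txnip and its relatives answer to glucose through the factors MondoA (Mlxip) and MLX, which sense sugar phosphates. Of 7 genes of this group 5 fell and 1 rose. Arrdc3, an alpha-arrestin that regulates receptor traffic, had 1673, 1421 and 1462 normalized counts in basal medium and 669.6, 655 and 669 in EBSS (-1.16 ± 0.09), and Arrdc4, a restraint on glucose uptake like Txnip, had 537, 489 and 496 normalized counts in basal medium and 259.6, 257 and 259 in EBSS (-0.90 ± 0.08). EBSS libraries were the lower ones in each. Mlxip rose by 0.38 ± 0.07 and Mlx fell by 0.39 ± 0.07.

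Glycolytic transcripts mostly fell by small steps. Of 24 genes 15 fell and 2 rose, with a median of -0.23. A single gene rose without basal replicate 2 or 3 or EBSS replicate 2 of Vps15KO. Aldoa, an aldolase, had 42271, 44070.5 and 44223 normalized counts in basal medium and 33553, 34109 and 33532 in EBSS (-0.37 ± 0.07), and Tpi1 (-0.48 ± 0.07), Pfkp (-0.43 ± 0.06) and Eno1 (-0.34 ± 0.08) fell by similar steps. Slc16a3, the exporter of lactate, fell furthest, with 673, 715 and 707 normalized counts in basal medium and 313, 319.5 and 329.9 in EBSS (-1.06 ± 0.08). Hk2, hexokinase 2, made the larger of the 2 rises, with 2158, 2143 and 2244 normalized counts in basal medium and 5419, 5205 and 4651 in EBSS (1.21 ± 0.07). Its 3 EBSS values exceeded all basal values. The glucose transporter Slc2a1 had no call (-0.05 ± 0.06).

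In cholesterol synthesis and uptake, genes under the sterol-regulated factor SREBP2, 15 of 24 fell and 3 rose (median -0.23). Hmgcs1, the cytosolic HMG-CoA synthase, had 3736, 4047 and 4596 normalized counts in basal medium and 1735, 1831 and 1752 in EBSS (-1.20 ± 0.09), with no overlap. Dhcr7 (-0.75 ± 0.07), Mvd (-0.64 ± 0.09) and Fdps (-0.57 ± 0.08) fell. Insig1, which retains SREBP in the endoplasmic reticulum, went the other way (0.44 ± 0.08), as did Hsd17b7 (0.45 ± 0.10). Fatty acid synthesis had 5 falls and 2 rises among 16, Srebf1 the first (-0.51 ± 0.06), with Fasn (-0.12 ± 0.08) and Scd1 (-0.04 ± 0.07) not called. The number of falls ran from 3 (leaving out replicate 2 or 3 of either medium in Vps15KO) to 11 (length and GC trends removed). Of 15 PPAR targets and oxidation genes 4 rose and 3 fell, with 1 fall without basal replicate 2 or 3 or EBSS replicate 2 of Vps15KO. Cpt1a, which admits fatty acids to mitochondria, had 1605, 1484 and 1465 normalized counts in basal medium and 3725, 3580.1 and 3559.9 in EBSS (1.24 ± 0.07), whereas Cpt2, the next carnitine enzyme, had 496, 532 and 529 normalized counts in basal medium and 261, 266 and 283 in EBSS (-0.88 ± 0.07). The media were apart for both, in opposite directions.

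NRF2 targets, genes of defence against oxidants and electrophiles, rose at 8 of 17 and fell at 5. Hmox1, heme oxygenase, had 5382, 5450.5 and 5388 normalized counts in basal medium and 13282, 11999.6 and 12236 in EBSS (1.20 ± 0.06), and Osgin1, an oxidative stress gene, had 373, 390.1 and 345 normalized counts in basal medium and 1131, 1239.7 and 1328 in EBSS (1.66 ± 0.09). Gclc, the catalytic subunit for glutathione synthesis (1.15 ± 0.11), and the factor Nfe2l2 itself (0.76 ± 0.06) rose. The pentose phosphate enzymes G6pdx (-0.38 ± 0.06), Taldo1 (-0.44 ± 0.08) and Tkt (-0.26 ± 0.06) fell. Of 12 metallothioneins and zinc carriers 9 rose and 1 fell. Slc30a1 led, and the metal-binding Mt2 had 1652, 1439.8 and 1567 normalized counts in basal medium and 2462, 2374 and 2382 in EBSS (0.62 ± 0.09) and Mt1 had 5884, 6043 and 5635 normalized counts in basal medium and 8058, 7571 and 8223 in EBSS (0.44 ± 0.10), both without overlap. Their zinc-responsive factor Mtf1 rose by 0.38 ± 0.08. With length and GC trends removed 5 of the 12 rose.

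Stress pathways of protein folding gave mixed directions. Among 16 genes of the unfolded protein response 4 rose and 7 fell. Herpud1, of the degradation complex of the endoplasmic reticulum, had 2073, 2061 and 1978 normalized counts in basal medium and 4816, 4845 and 5036 in EBSS (1.25 ± 0.07), and the cochaperone Dnajb9 had 1186, 1102 and 1068 normalized counts in basal medium and 2867, 2914 and 2818 in EBSS (1.34 ± 0.10). The folding enzymes Pdia6 (-0.31 ± 0.06) and Pdia4 (-0.28 ± 0.06) and the secreted Creld2 (-0.38 ± 0.08) fell. Without basal replicate 3 or EBSS replicate 2 of Vps15KO, falls numbered 4 in place of 7. Of 15 heat shock proteins 5 rose and 3 fell, with Hsph1 (0.72 ± 0.08), Dnajb1 (0.48 ± 0.06) and Bag3 (0.42 ± 0.06), which assist HSP70, ahead. Without basal replicate 3 or EBSS replicate 2 of Vps15KO the heat shock falls numbered 1.

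Targets of p53 rose at 8 of 17 and fell at 5. Trp53inp1, which acts in both cell death and autophagy, had 605, 546 and 565 normalized counts in basal medium and 1506, 1439.9 and 1402 in EBSS (1.30 ± 0.09), and Mdm2, the ligase that degrades p53, had 739, 732 and 774 normalized counts in basal medium and 1539, 1437 and 1285 in EBSS (0.90 ± 0.07). Cdkn1a (p21) rose by 0.49 ± 0.07. The p53 falls, among them Ccng1 (-0.33 ± 0.06) and Zmat3 (-0.31 ± 0.07), numbered 2 without Vps15KO basal replicate 3 and 3 without replicate 2 of Vps15KO basal or Vps15KO EBSS replicate 1 or 3. In the BCL2 family 4 rose and 5 fell of 12, with 2 rises without basal replicate 2 or 3 or EBSS replicate 3 of Vps15KO. The survival factor Mcl1 rose by 0.73 ± 0.06 and Bcl2l1 (BCL-XL) fell by 0.55 ± 0.06. Bbc3 (PUMA), a killer protein, rose by 0.93 ± 0.09, and the effector Bak1 fell by 0.49 ± 0.08.

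Antiviral genes rose, and several inflammatory chemokines fell. Of 26 type I interferon response genes 15 rose and 1 fell, with a median of 0.29, and 0 fell without replicate 2 of either medium in Vps15KO. Irf9, the DNA-binding part of the interferon-activated complex, had 1825, 1821 and 1810.1 normalized counts in basal medium and 3746, 3666 and 3522 in EBSS (0.99 ± 0.07). Mx1, a dynamin-like antiviral GTPase, had 318, 274 and 279 normalized counts in basal medium and 813, 815 and 757 in EBSS (1.37 ± 0.11), and Mx2 rose by 1.04 ± 0.13. Ddx58 (RIG-I, 0.64 ± 0.09) and Cmpk2 (1.02 ± 0.16) rose as well, while Isg15 (-0.06 ± 0.12) and Rsad2 (0.09 ± 0.14), both strongly inducible, had no call. The cytokine group had 4 rises and 6 falls among 16. Cxcl1, an attractant of neutrophils, had 1560.4, 1391 and 1233 normalized counts in basal medium and 359, 439.9 and 349.7 in EBSS (-1.79 ± 0.11), and Ccl2, an attractant of monocytes, had 1031, 1007 and 1057 normalized counts in basal medium and 506, 585 and 569 in EBSS (-0.87 ± 0.10). Ccl7 and Cxcl5 (-0.77 ± 0.08) fell as well. Nfkbia, a feedback inhibitor of NF-kappaB, had 1137, 1255 and 1201 normalized counts in basal medium and 2763, 2937 and 2674 in EBSS (1.20 ± 0.07). Tnfaip3, another, had 403, 362 and 421 normalized counts in basal medium and 945, 1042 and 971 in EBSS (1.26 ± 0.09). The activity of NF-kappaB was not tested. For the 6 genes given by library here the media did not overlap.

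Among growth factor receptors and their adaptors 9 of 16 rose and 2 fell, against 6 and 5 with length and GC trends removed, where the median went from 0.22 to -0.01. Irs1 had 647, 647 and 706 normalized counts in basal medium and 1499, 1539 and 1589 in EBSS (1.18 ± 0.07), and Pdgfrb, a receptor typical of fibroblasts, had 4387, 4016 and 3898 normalized counts in basal medium and 8328, 8286 and 8311 in EBSS (1.02 ± 0.06). The EBSS libraries were the higher ones for each. Epha2 fell by 0.57 ± 0.07 and Erbb2 fell by 0.28 ± 0.07. Of 14 Wnt pathway genes 5 rose and 4 fell, with rises of 0.95 ± 0.09 in the receptor Fzd1, 0.76 ± 0.11 in the ligand Wnt9a and 0.70 ± 0.11 in the feedback gene Axin2. A filter at 3 above the floor left 2 rises in this group, since scarce genes were no longer tested, and 2 Wnt genes fell without basal replicate 2 or 3 or EBSS replicate 1 or 2 of Vps15KO. YAP and SRF targets, which respond to cell tension and serum, rose at 8 of 23 and fell at 3. Srf itself had 938, 884 and 904 normalized counts in basal medium and 1615, 1519.8 and 1719.7 in EBSS (0.81 ± 0.06). Ankrd1 rose by 0.61 ± 0.10, Ccn1 fell by 0.46 ± 0.13, and Ccn2 (0.19 ± 0.15) was not called. Falls in the group numbered 5 without WT basal replicate 2 and without both WT libraries that stand apart.

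Matrix genes shifted little. Of 28 genes 7 rose and 4 fell. Collagen chains went apart: Col1a1 (-0.35 ± 0.09) of the interstitial fibrils fell, Col4a2 (0.24 ± 0.06) of basement membrane and Col5a1 (0.25 ± 0.06) rose, and Col1a2 had no call (-0.08 ± 0.07). With length and GC trends removed 3 matrix genes rose and 9 fell, and without replicate 2 of Vps15KO basal or Vps15KO EBSS replicate 3 the rises numbered 4. Of 18 matrix proteases and inhibitors 0 rose and 5 fell. Mmp11, a stromelysin, had 4822, 4621 and 4369 normalized counts in basal medium and 2374, 2661 and 2647 in EBSS (-0.84 ± 0.07). It was lower in every EBSS library.

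Ribosomal proteins and the factors that build ribosomes parted. Of 53 cytosolic ribosomal protein genes 51 fell and 0 rose, within a narrow band around a median of -0.31. Their summed counts were 1039560 to 1116620 in basal and 855306 to 882442 in EBSS libraries. Rps20 had 23529, 24317 and 24237 normalized counts in basal medium and 17308, 17488 and 16283 in EBSS (-0.50 ± 0.08), and Rpl34 fell by 0.43 ± 0.08. Rpl7a (-0.09 ± 0.07) and Rpl30 (-0.12 ± 0.10) were the 2 without a call, and Rpl30 passed without Vps15KO EBSS replicate 3. The count of falls was 32 without Vps15KO basal replicate 2 and also 32 with length and GC trends removed. These short genes have many processed copies, between which reads can be misassigned. Of 28 biogenesis genes 16 rose and 1 fell, with a median of 0.24, and 3 fell without WT basal replicate 2 and without both WT libraries that stand apart. Tsr1, which matures the small subunit, had 283, 293 and 323 normalized counts in basal medium and 1075, 1048 and 982 in EBSS (1.70 ± 0.08), and Ddx21, a nucleolar helicase, had 1245, 1096 and 1096 normalized counts in basal medium and 2133, 2029.7 and 2138 in EBSS (0.86 ± 0.07). Both were apart between media.

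Translation factors rose at 13 of 24 and fell at 3. Eif5, which activates the GTPase of the initiation complex, had 4595, 4076 and 4287 normalized counts in basal medium and 10881, 10601 and 9631 in EBSS (1.26 ± 0.07), and Eif3a, Eif1a and Eif4e rose by 0.78 ± 0.07, 0.72 ± 0.07 and 0.42 ± 0.05. The falls were in Eif5a (-0.22 ± 0.06) and the elongation subunits Eef1b2 (-0.29 ± 0.08) and Eef1g (-0.37 ± 0.10), which belong with ribosomal proteins to the mRNAs regulated through a terminal pyrimidine tract.

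Among nuclear-encoded subunits of the respiratory chain, falls were called at 23 of 31 with no rise, and the median was -0.32. With length and GC trends removed 17 fell, with a median of -0.18. Sdhb, the iron-sulfur subunit of succinate dehydrogenase, had 1654, 1791 and 1811 normalized counts in basal medium and 1290.1, 1296 and 1238 in EBSS (-0.45 ± 0.07), and Ndufb8, of complex I, had 1610.2, 1903 and 1789.5 normalized counts in basal medium and 1286, 1214 and 1207 in EBSS (-0.50 ± 0.08). All 3 EBSS values of each lay under the basal ones. Mitochondrially encoded mRNAs fell at 3 of 13. ND6 fell by 0.58 ± 0.14 and ND3 fell by 0.62 ± 0.18, while the third, ATP6 (-0.49 ± 0.14), was not called without Vps15KO EBSS replicate 3 (-0.35, adjusted p = 0.0584). The 13 mRNAs took 1.44% to 1.88% of the reads of basal and 1.48% to 1.57% of those of EBSS Vps15KO libraries. In the fit of the 6 Vps15KO libraries alone, and without both WT libraries that stand apart, 6 of them fell. Proteasome subunits fell at 8 of 25 and rose at 2. Psma7 fell by 0.52 ± 0.08 and Psmb5 fell by 0.40 ± 0.07. With quantile normalization 18 subunits fell, and without Vps15KO basal replicate 2 there were 5.

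Mitotic genes fell where they changed. Of 20 mitotic genes 11 fell and 0 rose, with a median of -0.29. Aurkb, a kinase of chromosome segregation, had 448, 671 and 773 normalized counts in basal medium and 359.9, 372 and 394 in EBSS (-0.68 ± 0.13), and Cdk1, the kinase that starts mitosis, had 906, 1092 and 1146 normalized counts in basal medium and 787, 793 and 763 in EBSS (-0.41 ± 0.10). In basal medium replicate 1 was the lowest for both. Without Vps15KO basal replicate 3 the mitotic falls numbered 5. Genes of DNA replication showed no common direction, 7 rising and 5 falling of 28, among them Slbp, which binds histone mRNA (0.72 ± 0.07), Pcna (0.52 ± 0.06) and Pold1 (-0.62 ± 0.07). Without WT basal replicate 2, and without both WT libraries that stand apart, 8 replication genes fell. Of 13 G1 cyclins and inhibitors 6 fell and Cdkn1a alone rose. Ccnd3, a D-type cyclin, had 4249.6, 4093 and 4384 normalized counts in basal medium and 2095, 2379 and 2382 in EBSS (-0.89 ± 0.07), with EBSS the lower in every library, and the inhibitors Cdkn2c (-0.56 ± 0.06) and Cdkn2b (-0.56 ± 0.07) fell as well.

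Among chromatin genes, to which the title of the series points, more rose than fell before length and GC trends were removed. With these trends removed more remodellers fell than rose, and the counts are given below. Histone acetylation enzymes and readers rose at 13 of 29 and fell at 7. Sirt1, a deacetylase that depends on NAD, had 181, 140.2 and 169.6 normalized counts in basal medium and 1002, 918 and 818 in EBSS (2.30 ± 0.10). Brd2, a reader of acetylated histones, had 5671, 5815 and 6027 normalized counts in basal medium and 14469, 14293 and 14463 in EBSS (1.30 ± 0.05), a gain of 8570.3 counts. The acetyltransferases Kat5 (0.89 ± 0.07), Ep300 (1.02 ± 0.11) and Crebbp (0.84 ± 0.09) rose, while Kat2a (-0.34 ± 0.09) and Hdac7 (-0.29 ± 0.07) fell. Falls numbered 4 in place of 7 without Vps15KO basal replicate 2 or 3 or the EBSS replicate 1 or 2.

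Histone methyltransferases and demethylases rose at 16 of 33 and fell at 4. Kdm3a, a demethylase also induced by low oxygen, had 1464, 1359 and 1407 normalized counts in basal medium and 3656, 3453 and 3321 in EBSS (1.28 ± 0.09), and Setd1a, a methyltransferase of promoters, had 1252, 1283 and 1286 normalized counts in basal medium and 2317, 2275 and 2445 in EBSS (0.87 ± 0.05). Kdm1a (LSD1) fell by 0.50 ± 0.07 and the methyltransferase Ehmt2 (G9a) fell by 0.36 ± 0.07. Remodellers, which move nucleosomes with ATP, rose at 15 of 36 and fell at 7. Ino80, the motor of the INO80 complex, had 884, 864 and 758 normalized counts in basal medium and 1882, 1955 and 1844 in EBSS (1.16 ± 0.06), and Chd2 rose by 0.74 ± 0.06. Chd7 was scarce, with 16.6, 15.7 and 14.7 normalized counts in basal medium and 96.4, 104 and 72.1 in EBSS (1.58 ± 0.13). The BAF subunit Smarcd2 fell by 0.69 ± 0.06, and the ATPase Smarca4 (BRG1) had no call (-0.08 ± 0.08). With length and GC trends removed, 9 remodellers rose and 15 fell. By the same alternative 13 methylation genes rose and 11 fell, and 12 acetylation genes rose and 8 fell. Methylation falls numbered 2 without basal replicate 2 or EBSS replicate 1 or 2 of Vps15KO.

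Long noncoding RNAs rose at 7 of 15 and fell at 5. Neat1, the scaffold of paraspeckles, at chromosome 19, 5824708 to 5845480 on mm10, had 18544, 18795 and 17422 normalized counts in basal medium and 4424, 4531 and 5219 in EBSS (-1.95 ± 0.08), so the mean fell by 13529 counts. Mir100hg, the host of a microRNA cluster, had 2823, 3206 and 2841 normalized counts in basal medium and 721, 726 and 758 in EBSS (-1.97 ± 0.07). EBSS libraries kept 25.9% of the basal mean of Neat1 and 24.9% of that of Mir100hg. The snoRNA host genes Snhg15 (0.91 ± 0.10), Snhg5 (0.47 ± 0.07) and Snhg1 (0.37 ± 0.08) and Norad (0.46 ± 0.05), which sequesters Pumilio proteins, rose. Besides Neat1 and Mir100hg, 3 falls were under 0.5 in size, and 2 falls were counted without replicate 2 of Vps15KO basal or Vps15KO EBSS replicate 1 or 2, and 3 without Vps15KO basal replicate 1 or WT EBSS replicate 2.

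**Figure D3:**
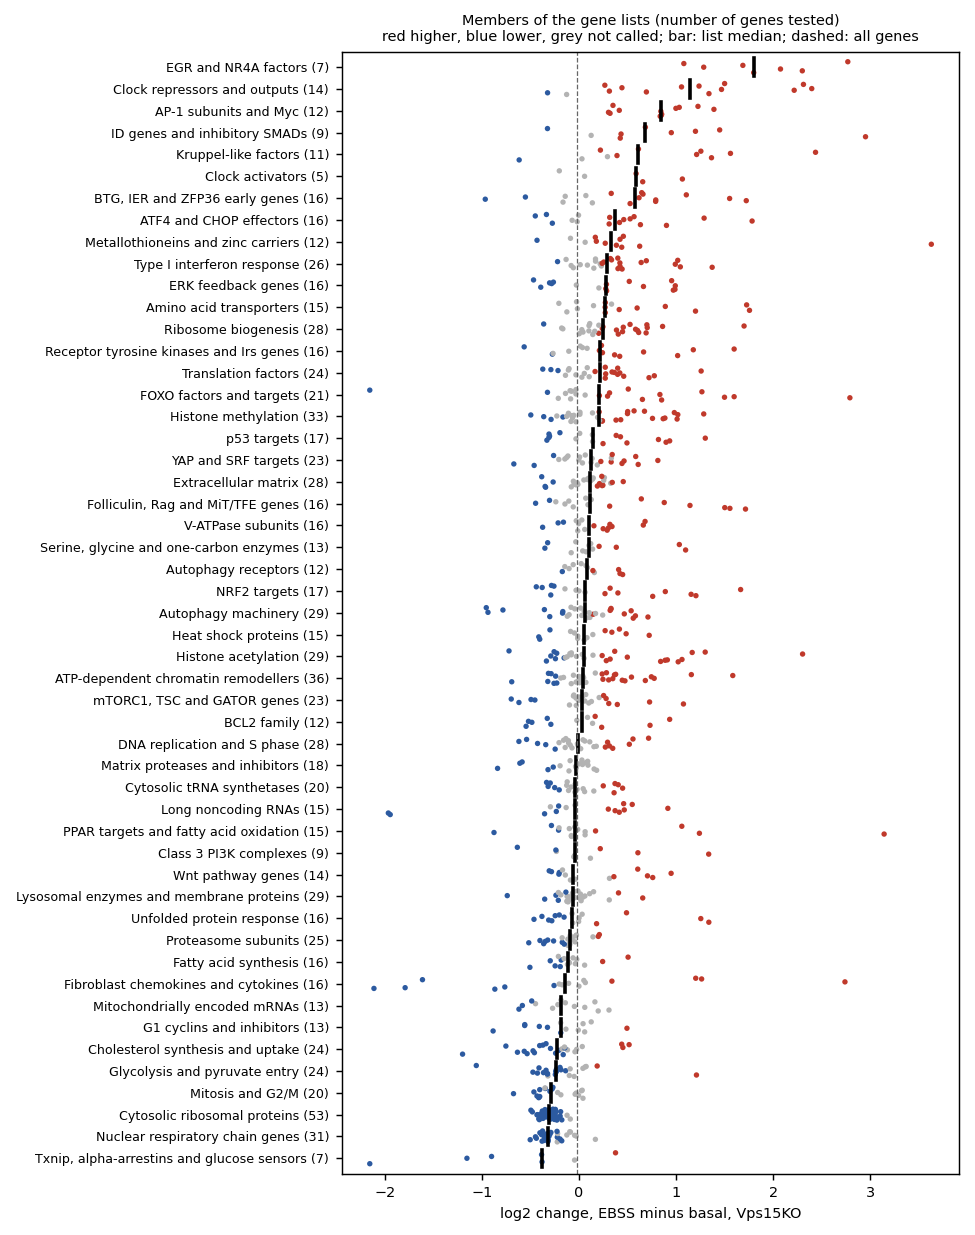
Log2 change after EBSS in Vps15KO (x axis) of each tested member of 51 gene groups (y axis, number tested in brackets), sorted by median. Red members rose, blue fell and grey were not called, a black bar marks the median of a group and the dashed line that of all genes (-0.02). EGR and NR4A factors lie highest with a median of 1.80, and the Txnip group lowest with -0.39.

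WT fibroblasts under the same medium change show which of these responses differ between Vps15KO and WT cells. Vps15KO cells had received adeno-CRE and WT cells adeno-GFP. Loss of Vps15, exposure to Cre and expression of GFP therefore cannot be told apart in any of these differences. The difference of the EBSS effects (Vps15KO minus WT, the interaction term in limma) was called in 2540 genes, 17.8% of those tested, higher in 1363 (9.55%) and lower in 1177 (8.24%). The 2 comparisons share no library. In WT itself 4486 genes rose (31.4%) and 4468 fell (31.3%). Without both WT libraries that stand apart 1669 differences were higher and 1489 lower, and the 20 largest differences, 10 in each direction, were all called there too, between 1.45 and 2.39 for the positive and between -0.99 and -2.21 for the negative ones.

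Immediate early genes had the largest positive differences. In WT, Nr4a1 had 3033, 3034 and 2966 normalized counts in basal medium and 1774, 1653 and 2039.9 in EBSS, so it fell by 0.72 ± 0.09 and the difference was 2.41 ± 0.12 (adjusted p = 8.83e-10). Egr1 in WT had 2162, 1747 and 2074 normalized counts in basal medium and 1319, 1395 and 1509.8 in EBSS, also a fall (-0.49 ± 0.09), for a difference of 2.29 ± 0.13. The Vps15KO libraries in EBSS were the highest of the 12 for both genes. In WT 5 of the 7 EGR and NR4A genes rose and 2 fell, with a median of 0.56. All 7 had a difference called higher, and so did 9 of the 16 MAP kinase feedback genes and 8 of the 12 AP-1 subunits and Myc, where Jun was lower (-0.35 ± 0.08). Klf10 rose in both genotypes but by 1.43 ± 0.12 more in Vps15KO. Btg2, an antiproliferative early gene, fell in WT (-1.66 ± 0.09) and had no call in Vps15KO (0.14 ± 0.09), a difference of 1.79 ± 0.13. Bhlhe40 differed by 1.63 ± 0.11 and Ciart by 1.34 ± 0.12, both rising in each genotype. Plcxd2, a phospholipase C-like gene, differed by 1.76 ± 0.14, Hes1 by 1.36 ± 0.16 and the glycogen phosphorylase Pygm by 1.51 ± 0.19. Pygm had similar means in EBSS (102 in Vps15KO, 99.1 in WT) from basal means of 30.7 and 129, and its WT change was not called. Nr4a3 likewise had means of 787 and 733 in EBSS from basal means of 93.0 and 211.

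Several positive differences came from falls in WT that were smaller or absent in Vps15KO. Lbh, a transcriptional cofactor, fell by 2.69 ± 0.09 in WT and fell by 1.10 ± 0.09 in Vps15KO (difference 1.59 ± 0.13). Trim46, of the axonal tripartite motif family, fell by 1.79 ± 0.07 in WT and was not called in Vps15KO (-0.11 ± 0.07; difference 1.67 ± 0.10). The noncoding genes Carmn (2.11 ± 0.20) and Bvht (1.75 ± 0.15) lie close together, and whether the counting used strand is not given in the sources used here. Of the 23 YAP and SRF targets 11 had a difference called higher. Ccn1 fell by 1.61 ± 0.13 in WT, a difference of 1.14 ± 0.19. Atf4 (0.64 ± 0.13) and Slc3a2 (0.94 ± 0.11) rose further in Vps15KO, and Flcn did so by 0.40 ± 0.08.

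Negative differences included metal, oxidant and Wnt genes that rose further in WT. Wnt9a rose by 3.00 ± 0.11 in WT, from 85.7 ± 13.2 to 869.8 ± 90.0 normalized counts (SD, n = 3), and by 0.76 ± 0.11 in Vps15KO, a difference of -2.24 ± 0.15. Mt2 rose by 2.56 ± 0.09 in WT (difference -1.93 ± 0.12) and Mt1 by 1.70 ± 0.10 (difference -1.27 ± 0.14). Hmox1 had 1668, 1625 and 1655 normalized counts in basal medium and 11194, 11806 and 12039.8 in EBSS in WT, so that WT and Vps15KO ended at similar counts in EBSS from different basal levels (difference -1.60 ± 0.08). Slc30a1 rose further in WT (-0.73 ± 0.14), and Fbxo32 did so by a difference (-0.31 ± 0.10) that was not called without both WT libraries that stand apart (-0.19, adjusted p = 0.0878). Sqstm1 rose by 1.53 ± 0.07 in WT, from 18105 ± 350.4 to 52458 ± 1448 (SD, n = 3), for a difference of -1.08 ± 0.10. The cytoskeletal Add3 (-1.62 ± 0.14), the imprinted Peg10 (-1.28 ± 0.17) and the clock output factor Hlf (-1.29 ± 0.16) rose in both and further in WT. The homeobox genes Evx2 and Nkx3-2 rose in WT (0.96 ± 0.16 and 0.89 ± 0.13) and fell in Vps15KO (-0.51 ± 0.16 and -0.57 ± 0.13), with differences of -1.47 ± 0.22 and -1.46 ± 0.19. The fall of Evx2 was not called without Vps15KO EBSS replicate 2 (-0.42, adjusted p = 0.063). Txnip fell in both and further in Vps15KO (-1.27 ± 0.11).

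By gene group, differences ran in both directions. They were lower in 11 and higher in 4 of 21 FOXO factors and targets, where 17 rose in WT against 11 in Vps15KO. Of 17 NRF2 targets 8 were lower and 1 higher, of 16 fatty acid synthesis genes 7 were lower and 0 higher, and of 16 V-ATPase subunits 5 were lower and 0 higher. Of 26 interferon response genes 9 were higher and 1 lower, and of 15 long noncoding RNAs 6 were higher and 0 lower. No difference was called among 53 ribosomal proteins, of which 51 fell in WT as well, 25 proteasome subunits or 20 mitotic genes. Among chromatin genes the difference was higher in 3 and lower in 3 of 36 remodellers, higher in 4 and lower in 1 of 29 acetylation genes, and higher in 5 and lower in 4 of 33 methylation genes, against 9.55% and 8.24% of all genes.

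Among the 15 largest rises in Vps15KO cells 4 had no called difference, and among the 15 largest falls 9. Irf4 rose by 3.09 ± 0.11 in WT, Bmp2 by 2.18 ± 0.12 and Id2 by 2.55 ± 0.12, and Neat1 fell by 1.96 ± 0.08, Mir100hg fell by 1.94 ± 0.07 and Socs3 fell by 1.64 ± 0.07. For these 6 genes the differences were -0.03, 0.18, 0.40, 0.01, -0.02 and 0.03 in the same order, none of them called, which does not show that the genotypes respond alike. Without both WT libraries that stand apart, that of Id2 was 0.60, adjusted p = 0.00341 and called. Angptl4, the other of the 4 rises, had a difference of -0.46. In WT it rose by 3.60 ± 0.13, from a mean of 36.7 to 717 normalized counts, against 133 in EBSS in Vps15KO. The deposited scale understates changes of scarce genes, among them the rise of Angptl4 in Vps15KO. Brd2 (0.07), Sirt1 (0.25) and Atg14 (0.05) also had no call for the difference.

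**Figure D4:**
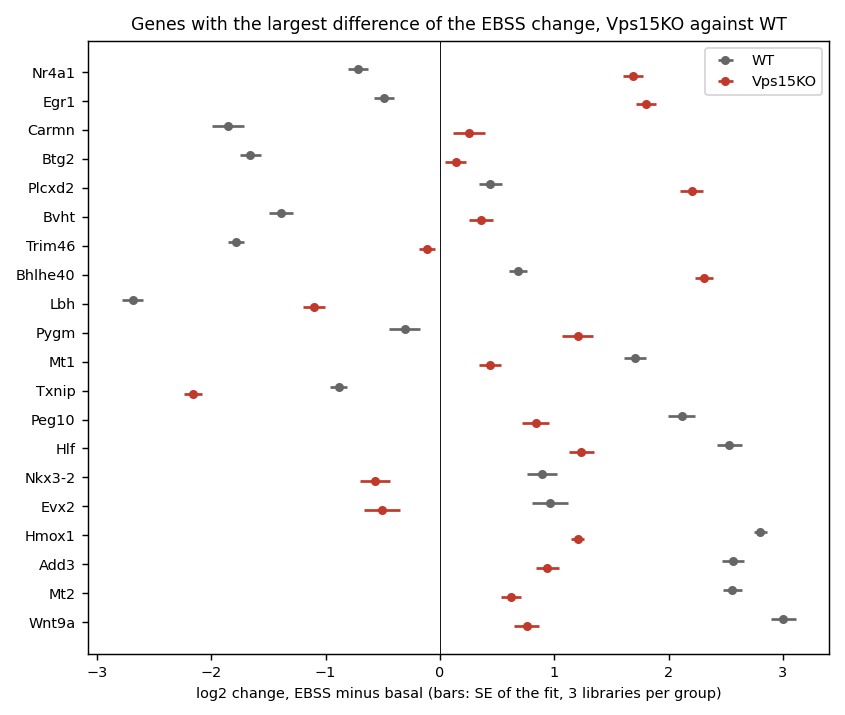
Log2 change after EBSS (x axis) in WT (grey) and Vps15KO (red) of the 20 genes with the largest called differences of the EBSS effect (y axis), with bars of 1 SE. Genes in the upper part have red points to the right of grey ones, those in the lower part to the left, and for Nr4a1, Egr1, Carmn, Btg2, Bvht, Pygm, Evx2 and Nkx3-2 the points lie on opposite sides of 0.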

How the data were processed

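RNA of 12 libraries of mouse embryonic fibroblasts was measured by sequencing of mRNA selected with oligo dT, with strands marked by dUTP per the labels' protocols; whether counting used the strand is not given in the sources used here. The deposited table holds 32721 genes as log2 values with a common floor of 3.83 for a count of 0, a variance-stabilizing scale on which changes of scarce genes are understated. STAR 2.7.10b, featureCounts, DESeq2, limma and mm10 are named in the submitters' processing notes, with no role given for each. Read counts were worked back from the deposited log2 values by inverting that scale, and all values came out whole within 0.001 of a read, giving the size factors and the normalized counts printed.

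The log2 values deposited by the authors were fitted with limma 3.58.1 in R 4.3.3, a mean per group over all 12 libraries and moderated variances with a trend (8 residual degrees of freedom). The 14279 genes whose mean over libraries exceeded the floor by 1 or more were tested, two-sided, with Benjamini-Hochberg adjustment. The SE of a change rests on a spread shared by all 12 libraries, so SEs in Vps15KO also carry the spread of WT libraries. In the fit of the 6 Vps15KO libraries alone 4118 genes rose and 4303 fell. The fit was tested on simulated data. Alternatives were filters, normalizations, scales, voom on the worked-back reads (3719 genes higher and 3737 lower in Vps15KO, at the same threshold), a replicate block, removal of length and GC trends and libraries left out.

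Genes named are Pik3r4, the largest rises, falls, gains, losses and differences among called genes, without predicted genes, RIKEN clones, LOC numbers and pseudogenes, and members of the gene groups, smallest p first; further members were named for their role after their values were seen, and a few members are not reported here. The comparison, the gene groups and this rule were chosen with earlier results of these data known. Symbols, positions and promoter windows came from RefSeq tables on GRCm38.p6, which matched all 32721 symbols and 10879 promoters of tested genes; motifs were searched on both strands in the 250 bases before the start.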

Additional observations from a re-analysis of the deposited data

Results flagged for a closer look

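The EBSS effect differed between Vps15KO and WT by the interaction test in limma (adjusted p under 0.05) for the genes listed here, each given with its difference of log2 changes, Vps15KO minus WT. Positive differences, in which the change in Vps15KO was the higher one, were found for Nr4a1 (2.41), Egr1 (2.29), Carmn (2.11), Btg2 (1.79), Plcxd2 (1.76), Bvht (1.75), Trim46 (1.67) and Bhlhe40 (1.63). Smaller positive differences were those of Lbh (1.59), Pygm (1.51), Klf10 (1.43), Hes1 (1.36), Ciart (1.34), Ccn1 (1.14), Slc3a2 (0.94), Atf4 (0.64) and Flcn (0.40). Negative differences, in which it was the lower one, were found for Fbxo32 (-0.31), Jun (-0.35), Slc30a1 (-0.73) and Sqstm1 (-1.08) and, of larger size, for Mt1 (-1.27), Txnip (-1.27), Peg10 (-1.28), Hlf (-1.29), Nkx3-2 (-1.46), Evx2 (-1.47), Hmox1 (-1.60), Add3 (-1.62), Mt2 (-1.93) and Wnt9a (-2.24). No explanation of these differences was tested.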

How the results depend on the processing

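Counts at a log2 change of 1 or more depended on the scale: on log2 of the normalized count plus 1 there were 717 rises and 266 falls, and with voom 737 and 286, against 411 and 88 on the deposited scale. For the difference between genotypes an adjusted p under 0.01 left 707 higher and 520 lower, and library weights gave 1805 lower, against 1363 and 1177. Leaving out 1 library at a time gave 3250 to 4094 rises and 3023 to 4237 falls in Vps15KO, 401 to 437 rises and 82 to 96 falls of at least 1, and 1023 to 1659 higher and 832 to 1516 lower differences. The other alternatives kept these 6 counts within 1.5 times, quantile normalization at 3336 rises and 4338 falls and removal of length and GC trends at 3068 and 4088. Genes called in Vps15KO kept their direction under every alternative run except removal of length and GC trends, where 128 changed sign and 1 was called the other way. Some alternatives leave the Vps15KO group means as they are, so there the direction could not change. These were the filters, the fit without a variance trend, the replicate block, WT libraries left out and the 6 Vps15KO libraries alone. Library weights or quantile normalization raised the falls of several gene groups by over 1.5 times, for example from 3 to 5 in PPAR targets (quantile) and from 5 to 9 in replication genes (library weights), and library weights raised the lysosomal rises from 2 to 5. Falls of long noncoding RNAs numbered 3 without a filter and 2 without a variance trend. Replicate numbers did not pair the media in Vps15KO: residuals of same-numbered libraries correlated at 0.012, -0.073 and 0.0035, and those of differently numbered ones at -0.074 to 0.079. With the replicate block 3677 genes rose and 3714 fell, 411 and 88 by at least 1, and 1360 differences were higher and 1175 lower. With 3 libraries a group, small changes of scarce genes were not detectable, and a missing call does not show that a gene kept its level.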

Other observations

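Length of the transcript went with the direction of change in both genotypes. With genes split by transcript length into 4 sets of like size, from the shortest to the longest, the median log2 change in Vps15KO was -0.17, -0.07, 0.02 and 0.17, and in WT -0.20, -0.06, 0.07 and 0.20. Ribosomal protein and respiratory chain genes are short, and many chromatin genes are long. Length was removed only together with GC content, and their parts cannot be told apart from that alternative.

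Genes that fell by at least 1 in Vps15KO were compact and often noncoding. Their median span was 8864.5 bp with 4 exons, 53.4% spanned under 10 kb and 28.4% were noncoding. Over all genes tested the median span was 20452 bp with 7 exons, 29.8% spanned under 10 kb and 12.3% were noncoding. Genes that rose by at least 1 were closer to the whole, with 17888 bp, 6 exons, 32.4% and 9.49%. These are descriptions without a test. Genes that fell by at least 1 were also scarcer, with a median of 156 normalized counts against 489 over all genes.

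TGACG, the core of the CRE, was present in 27.6% of the windows of genes that rose by at least 1, in 24.6% of those of genes that fell by at least 1 and in 26.6% of all. TCACCCCAC, a site of SREBP factors, was present in 0.929%, 4.62% (3 of 65) and 0.460% of them in the same order. Other sites searched gave, in that order, 2.48%, 3.08% and 2.13% (FOXO, GTAAACA) and 55.1%, 53.8% and 52.1% (metal response, TGCNCNC). The ATF4 site TTGCATCA was present in 0.619%, 0% and 0.561%. The full CRE, the AP-1 site TGANTCA, the CArG box CCWWWWWWGG and the D-box TTATGTAA were searched as well. Full CRE and AP-1 shares were higher in both sets than in all. None of these shares was tested. Over all called genes, whatever their size, an E-box CACGTG was present in 11.2% of those that rose and in 7.39% of those that fell. Their windows had median GC contents of 61.2% and 59.2% and a median of 18 and 15 CG pairs, a pair that the E-box contains.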
